A study of Mus musculus with 2 samples.

Results

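The carbonic anhydrase genes examined here were Car2, Car3, Car4, Car5b, Car6, Car8, Car9, Car11, Car12 and Car13, 10 of the 18193 mouse genes named on the array. They were measured by 21 of 45101 probe sets, namely every probe set that the platform annotation assigned to one of these symbols and to no other gene. The genes were chosen by family with the signal ratios of these same arrays known, so all ratios below are descriptions, with no test. The study asked how secreted products of different prostate cancer cell lines alter transcripts of osteoblasts, the bone-forming cells. Primary mouse osteoblasts on day 10 of differentiation, with ascorbic acid and beta-glycerophosphate in alpha-MEM and fetal calf serum, were starved of serum overnight and exposed for 6 hours to conditioned medium of 1 of 2 human prostate cancer lines. The groups were MDA-PCa2b medium, whose line is linked to bone-forming metastases, and PC-3 medium, whose line is linked to bone-destroying ones, with 1 Affymetrix array of total RNA each; the sources used here do not give strain, age or number of animals.

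Carbonic anhydrases are zinc enzymes that interconvert carbon dioxide and bicarbonate and so set a proton free or take one up. The family is divided by location, with cytosolic (Car2, Car3, Car13), mitochondrial (Car5b), membrane-bound (Car4, Car9, Car12) and secreted (Car6) forms, beside carbonic anhydrase-related proteins (Car8, Car11) that lack catalytic activity. In bone, the family is best known for Car2, which supplies the protons with which osteoclasts dissolve mineral, and Car3 is known as an abundant cytosolic form of muscle, fat and liver with low activity. Car9 and Car12 carry their enzyme domain outside the cell and are known targets of hypoxia-inducible factors in tumours.

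The promoter windows of Car9, Car12 and Car5b are shown first because the measured members include both hypoxia-linked membrane forms and because Car5b had the highest ratio of the family. Each runs from 250 bases before to 50 bases after the annotated start, on the gene's own strand, from RefSeq (GRCm38.p6), at chr4:43506776-43507075 (plus strand) for Car9, chr9:66713436-66713735 (plus strand) for Car12 and chrX:164027961-164028260 (minus strand) for Car5b. Capitals mark matches, on either strand, to ACGTG or GCGTG (core letters of the hypoxia response element), TGTGGT (core letters of Runx sites) or TGACGTCA (the cAMP response element).
Car9: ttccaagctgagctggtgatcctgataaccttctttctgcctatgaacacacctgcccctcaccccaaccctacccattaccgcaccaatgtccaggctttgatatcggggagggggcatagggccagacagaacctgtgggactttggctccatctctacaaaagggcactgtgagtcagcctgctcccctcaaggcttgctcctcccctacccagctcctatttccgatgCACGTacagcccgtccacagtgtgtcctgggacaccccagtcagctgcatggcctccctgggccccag
Car12: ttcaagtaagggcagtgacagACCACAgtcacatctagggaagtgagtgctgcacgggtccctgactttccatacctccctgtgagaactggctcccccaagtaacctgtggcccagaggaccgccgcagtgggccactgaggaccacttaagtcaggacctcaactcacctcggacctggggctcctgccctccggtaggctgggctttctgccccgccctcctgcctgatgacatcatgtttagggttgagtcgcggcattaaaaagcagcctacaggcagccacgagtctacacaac
Car5b: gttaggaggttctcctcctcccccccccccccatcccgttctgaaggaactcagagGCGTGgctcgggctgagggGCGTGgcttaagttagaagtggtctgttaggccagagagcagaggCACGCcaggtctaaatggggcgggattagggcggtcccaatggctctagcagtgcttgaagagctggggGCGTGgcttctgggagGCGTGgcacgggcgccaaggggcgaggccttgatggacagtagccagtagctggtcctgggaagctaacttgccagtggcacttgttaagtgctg
The Car9 window held 1 match to ACGTG, read as CACGT on the printed strand and beginning 18 bases before the start. The Car12 window held no match to ACGTG, none to GCGTG, none to TGACGTCA and 1 to TGTGGT, read as ACCACA and beginning 229 bases before the start. The Car5b window held 5 matches to GCGTG, 4 of them on the printed strand, and none to the other motifs. Windows were found for 6 of the 10 genes, 7 windows in all because Car11 has 2 starts; Car2, Car3, Car8 and Car13 were not among them. Of these 7 windows, 3 held ACGTG, against 19.6% of all 32851 windows in the table, and 4 held GCGTG (32.4%). Only 1 held TGTGGT (16.8%) and none held TGACGTCA (1.79%). The 2 Car11 windows overlap, and both count among the 4 with GCGTG. All 7 windows were richer in G and C (54 to 64.7%) than the median of all windows (52.7%). These matches describe the letters of the windows and show no binding.

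Car3 and Car8 gave lower signals in osteoblasts held in PC-3 medium than in those held in MDA-PCa2b medium, while the other measured members differed by less than 2-fold. Neither array is of osteoblasts kept without cancer cell medium. For every gene below, a fall with PC-3 medium and a rise with MDA-PCa2b medium therefore cannot be told apart. Signals were compared after values below the median of their array (56.7 for MDA-PCa2b medium, 57.7 for PC-3 medium) had been raised to that median, called the floor here. Each gene was represented by its brightest probe set on average. With this floor 6 of the 10 genes were above it on both arrays (Car3, Car5b, Car9, Car11, Car12 and Car13), Car8 was above it with MDA-PCa2b medium alone, and Car2, Car4 and Car6 were above it on neither. Of the 7 genes with a ratio, 2 were at least 2-fold lower with PC-3 medium and 0 reached 2-fold higher. Among all 11323 genes with a ratio, 1.85% were at least 2-fold lower, and 2.12% were higher by that factor; since the family was chosen with these ratios known, nothing is read from the difference. The median log2 ratio of the 7 genes was 0.21, against -0.04 over all genes with a ratio.

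**Figure D1:**
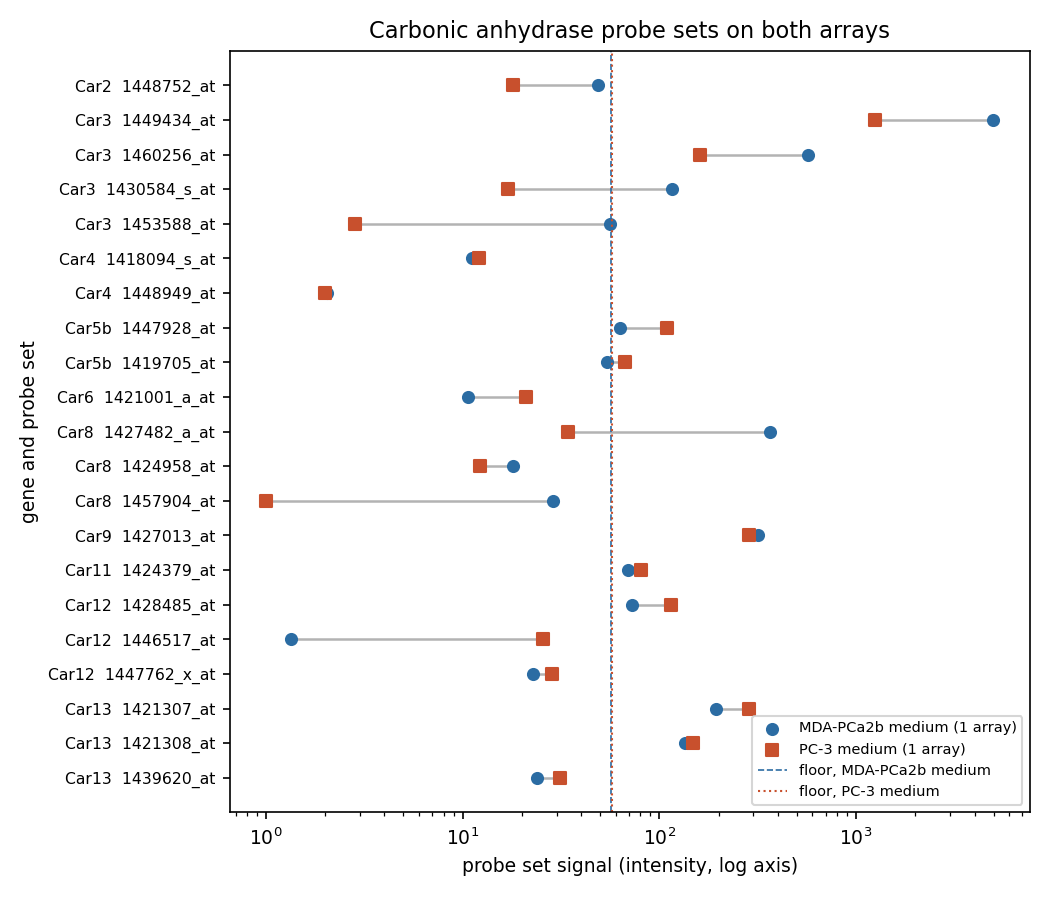
Signal (intensity, log axis) of each of the 21 carbonic anhydrase probe sets with MDA-PCa2b medium (circles) and PC-3 medium (squares), 1 array each; dashed and dotted vertical lines are the floors of 56.7 and 57.7. Among probe sets above the floor on at least 1 array, 3 of Car3 and 1 of Car8 have clearly lower squares than circles. The 10 probe sets below the floor on both arrays also include wide gaps. Squares are lower there for 1453588_at of Car3 and 1457904_at of Car8, among others, and higher for some, such as 1446517_at of Car12. Levels of different probe sets are not comparable with each other.

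Among the cytosolic enzymes, Car3 had the largest measured difference. Its brightest probe set (1449434_at) read 4985 (MDA-PCa2b medium) and 1245 (PC-3 medium), 4.01-fold lower (log2 ratio -2.002). A second probe set (1460256_at) read 570 and 161, 3.53-fold lower. Probe set 1430584_s_at read 116 and 17.0, the latter below the floor, so that it was at least 2.02-fold lower. The fourth (1453588_at) was below the floor on both arrays, at 56.0 and 2.82. The 3 probe sets with a ratio therefore lay on the same side, with log2 ratios of -2.002, -1.82 and, as a bound, -1.01. For comparison, log2 ratios of different probe sets of a gene scattered with an SD of 0.24 over 4921 genes, and with an SD of 0.19 in the highest tertile of signal, where Car3 lies; this is scatter within these arrays and not the spread between cultures. Only 14 of the 10649 genes measured on both arrays had a lower ratio than Car3. In the highest tertile of mean signal 0.930% of genes were at least 2-fold lower.

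Of the other cytosolic enzymes, Car13 had a ratio above 0 and Car2 was too dim for one. Car13, a widely expressed cytosolic form, read 195 (MDA-PCa2b medium) and 286 (PC-3 medium) by its brightest probe set, 1.47-fold higher (log2 ratio 0.55). Its second probe set read 135 and 148, a log2 ratio of 0.14, and the remaining one, at 23.8 and 31.1, was below the floor. Both Car13 ratios lay above 0, and the second was smaller than the scatter SD of 0.29 in the lowest tertile of signal. Car2, the osteoclast-linked form, had a single probe set, which read 48.5 (MDA-PCa2b medium) and 18.0 (PC-3 medium); both values lie below the floor and no ratio was given. At a 25th percentile floor the Car2 signal was 2.69-fold lower with PC-3 medium, and with log2(signal + 16) and no floor it was 1.90-fold lower.

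Car13, Car1, Car3 and Car2 are neighbours on mouse chromosome 3, in that order, with no other protein-coding gene between them in the RefSeq table. Across this row of related genes the log2 ratio was 0.55 for Car13 and -2.002 for Car3, whereas Car1, an erythrocyte form outside the chosen 10, read 22.6 and 15.7 and, like Car2, lay below the floor on both arrays. Car13, the only other gene of the row with a ratio, is not next to Car3. The genes next to Car3, Car1 and Car2, read lower with PC-3 medium but below the floor. Whether the Car3 ratio was shared along the row was not tested.

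The carbonic anhydrase-related proteins differed from each other. Car8, known to bind the IP3 receptor and to dampen calcium release from internal stores, read 366 (MDA-PCa2b medium) and 34.2 (PC-3 medium) by 1 probe set (1427482_a_at). The second value was below the floor, so Car8 was at least 6.35-fold lower, the lowest bound among the 347 genes measured with MDA-PCa2b medium alone. This value rests on a single probe set of a type that can match several transcripts. The remaining Car8 probe sets read 18.1 and 12.2 (1424958_at) and 28.7 and 1.001 (1457904_at), below the floor on both arrays, so they gave no ratio. When the floor was raised to the 75th percentile the bound shrank to 1.22-fold, and without probe sets that can match several transcripts Car8 had no ratio. Car11, the other related protein without catalytic activity, read 69.2 and 80.3, 1.16-fold higher with PC-3 medium (log2 ratio 0.21), which is less than the scatter SD of 0.29 between probe sets at low signal.

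The hypoxia-linked membrane enzymes both lay within 2-fold but differed from each other. Car9 read 317 (MDA-PCa2b medium) and 284 (PC-3 medium), a log2 ratio of -0.16, smaller than the probe set scatter of 0.25 in the middle tertile of signal. Car12 read 72.6 and 115, 1.58-fold higher (log2 ratio 0.66), by the only probe set of 3 that was above the floor; the others read 1.35 and 25.7, and 22.7 and 28.4. Of the genes measured on both arrays, 95.9% had a lower ratio than Car12, whose ratio exceeded the probe set scatter SD of 0.29 at low signal. The Car12 signal with MDA-PCa2b medium was, however, not far above the floor of 56.7. Car4, a form anchored to the membrane by a lipid, read 11.1 and 12.1 by one probe set and 2.05 and 1.996 by the other, below the floor throughout.

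Car5b, the mitochondrial enzyme, had the highest ratio of the family. Its brighter probe set read 63.4 (MDA-PCa2b medium) and 110 (PC-3 medium), 1.73-fold higher (log2 ratio 0.79). Its other probe set read 53.8, below the floor, and 67.1, at least 1.18-fold higher. Both values with MDA-PCa2b medium were near or under the floor, so the size of the Car5b ratio is uncertain. Car6, the secreted salivary form, read 10.7 and 21.0 and was below the floor on both arrays. Car5b and Car12 were the members at least 1.5-fold higher, 2 of 7, where 5.60% of all genes with a ratio were that much higher and 6.57% that much lower.

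**Figure D2:**
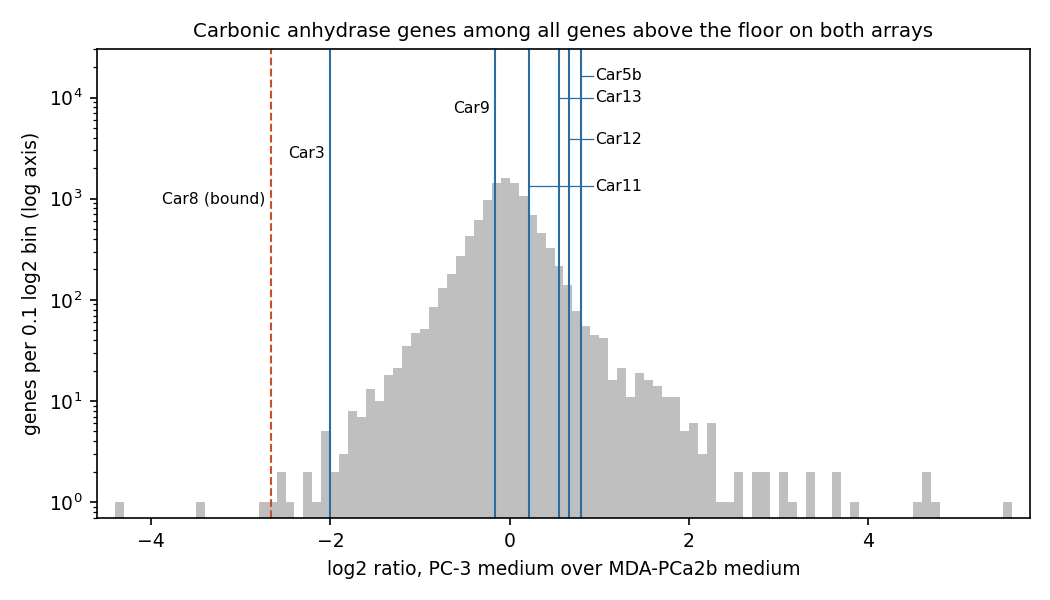
Number of genes (log axis) in each 0.1-wide bin of log2 ratio (PC-3 medium over MDA-PCa2b medium) for the 10649 genes measured on both arrays, with solid vertical lines at the 6 carbonic anhydrase genes among them and a dashed line at the Car8 bound. Car3 (-2.002) and Car8 (-2.67) lie in the thin lower tail, and Car9, Car11, Car13, Car12 and Car5b lie between -0.16 and 0.79.

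The remaining catalytic and related genes of the family, Car1, Car5a, Car7, Car10, Car14 and Car15, all had a probe set, and all 6 were below the floor on both arrays. Of the receptor tyrosine phosphatases that carry a carbonic anhydrase-like domain outside the cell, Ptprz1 read 1184 and 283, 4.19-fold lower with PC-3 medium, and a second probe set gave -2.25 on the log2 scale. Ptprg, its close relative, read 930 and 916 (log2 ratio -0.02), and its other probe sets gave -0.22 to 0.55.

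Genes that move the products of carbonic anhydrases across membranes were examined as lists. Of 9 measured bicarbonate and anion exchangers, 1 was at least 2-fold lower (1.85% of all genes with a ratio) and 0 were higher by that factor (2.12%); the median log2 ratio was 0.07, against -0.04 over all genes with a ratio. The lower gene was Slc26a7, an anion exchanger known from kidney and stomach, which read 521 and 193, 2.70-fold lower, although a second probe set gave only -0.24 on the log2 scale. Of 10 measured proton exchangers, monocarboxylate transporters and their partners, 2 were higher and 1 was lower by 2-fold or more (2.12% and 1.85% of all genes with a ratio), and the median log2 ratio was 0.38. Slc16a1, the lactate and proton cotransporter MCT1, read 950 and 3694, 3.89-fold higher, by its only probe set. Slc9a3r1, a scaffold protein that regulates sodium-proton exchangers, read 841 and 2380, 2.83-fold higher, and its further probe sets gave 1.30 and 1.41 on the log2 scale. Slc9a9, an endosomal sodium-proton exchanger, read 267 and 127, 2.10-fold lower, while its other probe set gave 0.23.

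The vacuolar proton pump, which acidifies lysosomes and, in osteoclasts, the bone surface, gave small ratios by the brightest probe sets. By these, all 19 measured subunit and partner genes lay within 2-fold, with a median log2 ratio of 0.11. Most genes lay within that range, since 1.85% of all genes with a ratio were at least 2-fold lower and 2.12% higher by that factor. Nothing is therefore read from a list lying within it. The largest ratios among the pump genes were 0.45 for Tcirg1, the pump subunit of the osteoclast border, and 0.33 for Atp6v0a2, a related subunit. Dimmer probe sets differed from this for some subunits, with log2 ratios down to -1.04 for Atp6v1e1 and of 0.79 for Atp6v1h and 0.76 for Atp6v0d2. The list of IP3 receptors, their regulators and phospholipases was included because Car8 binds the IP3 receptor. Its 14 measured genes also stayed within 2-fold by their brightest probe sets, with a median of -0.05. Itpr1 was listed but had no probe set of its own, so Itpr2 and Itpr3 were the only receptors read. The largest differences in this list were -0.75 for Inpp5a, a phosphatase that degrades IP3, and -0.66 for Plcb4, a phospholipase that makes it.

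Hypoxia response genes were listed because Car9 and Car12 are known to belong among them. Of 20 measured genes 4 were higher and 0 lower by 2-fold or more, against 2.12% and 1.85% of all genes with a ratio; the median log2 ratio was 0.31, against -0.04, and 18 had a ratio above 0. Those at least 2-fold higher were Egln3 (286 and 860), an oxygen-sensing hydroxylase, Adm (88.8 and 255), a vasodilator peptide, Pfkfb3 (298 and 795), a regulator of glycolysis, and Bnip3 (2609 and 5311), a mitophagy receptor. Beside them stood the log2 ratios of -0.16 for Car9 and 0.66 for Car12. Without probe sets that can match several transcripts the list's median was 0.62. Over all genes with a ratio, more lay below 0 than above it. The list was chosen with earlier results of these data known, so nothing is read from its count above 0.

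**Figure D3:**
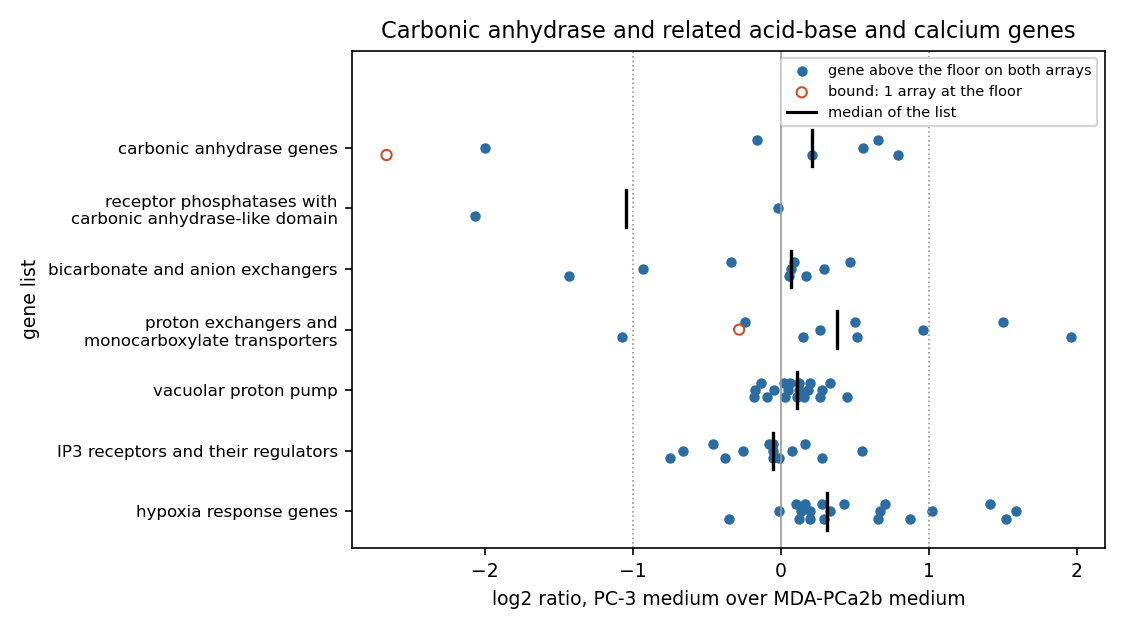
Log2 ratio (PC-3 medium over MDA-PCa2b medium) of each gene with a ratio in the carbonic anhydrase family and 6 related lists; filled points are above the floor on both arrays, open circles are bounds, black bars are list medians and dotted lines mark 2-fold. The vacuolar proton pump and IP3 receptor lists lie wholly between the 2-fold lines, as do most genes. Of all genes with a ratio, 1.85% were at least 2-fold lower and 2.12% higher by that factor. Car3 and Car8 lie far to the left of the other carbonic anhydrase genes.

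Car3 and Car2 are also known from cells other than osteoblasts, so markers were read in the same arrays; in RNA of whole cultures, fewer cells of a type and less RNA per cell cannot be told apart. Of 10 skeletal muscle markers 8 were below the floor on both arrays, among them Ckm, Myh1, Myod1 and Myog, and their summed signals were 278 (MDA-PCa2b medium) and 274 (PC-3 medium). Of 8 adipocyte markers 5 had a ratio, with a median log2 ratio of 0.19, and none differed 2-fold by its brightest probe set. Adipoq (101 and 139), Fabp4 (265 and 522) and Cd36 (205 and 233, with 1.28 on the log2 scale by another probe set) were on the higher side, Lpl (2652 and 2107) and Pparg (60.7 and 38.3) on the lower, and the summed signal was 3303 and 3063. Of 7 erythroid markers 6 were below the floor on both arrays. Osteoclast markers included Ctsk (7420 and 7336) and Acp5 (225 and 306), 6 of 10 had a ratio and none differed 2-fold. Their median log2 ratio was 0.30, with 5 above 0 and 1 below, and Calcr, Dcstamp, Ocstamp and Oscar were below the floor. All 9 macrophage and blood markers were above the floor on both arrays, including Csf1r (2713 and 2378) and Lyz2 (9194 and 9416), with sums of 16349 and 16907. Their median log2 ratio was 0.17, with 7 above 0 and 2, Csf1r among them, below. Chondrocyte markers were present as well, with Col2a1 at 4471 and 4162 and Col10a1 at 204 and 78.1 (2.61-fold lower). Col10a1 was the only one of 7 measured chondrocyte markers to differ 2-fold, and their median log2 ratio was -0.18, with 6 below 0 and 1 above.

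The osteoblast label was borne out by high signals of Col1a1 (20109 and 20052), Sparc (24832 and 24562) and Ibsp (17106 and 15794). Of 14 listed osteoblast markers, Runx2, Bglap, Bglap2 and Spp1 had no probe set of their own and were not read. All 10 markers with a probe set had a log2 ratio below 0 by their brightest probe set, with a median of -0.23. Dmp1, a mineral-binding matrix protein of late osteoblasts and osteocytes, read 1765 and 426 (4.14-fold lower). The osteoblast marker signals summed to 105989 (MDA-PCa2b medium) and 95667 (PC-3 medium). The brightest markers, Sparc, Col1a2 and Col1a1, weigh most in this sum. Only Dmp1 among these markers differed 2-fold, but Omd came close, with a log2 ratio of -0.96. Sp7 gave -0.68, Alpl -0.41, Pth1r -0.35, Ibsp -0.12 and Phex -0.10. The ratios of Col1a1, Col1a2 and Sparc were between -0.02 and 0, close to the all-gene median of -0.04. The other probe sets of Sparc gave 0.03 to 0.33, those of Col1a2 -0.59 to -0.08 and that of Col1a1 -0.15. The part of the lower markers in the Car3 and Car8 differences was not tested.

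**Figure D4:**
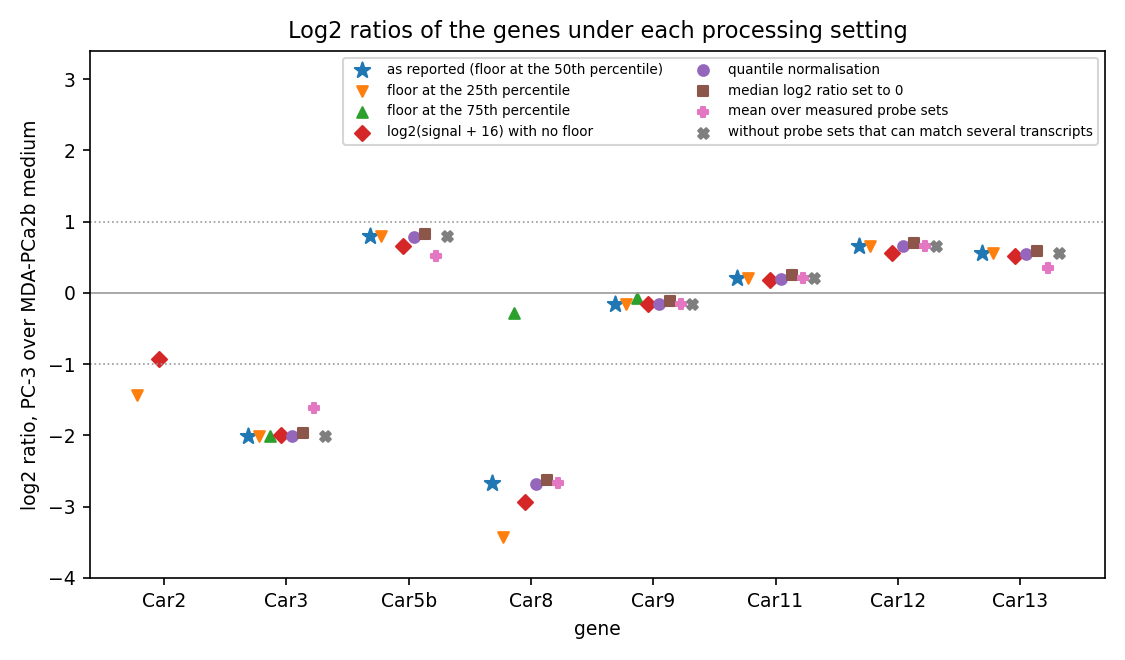
Log2 ratio (PC-3 medium over MDA-PCa2b medium) of 8 carbonic anhydrase genes under the setting used in the text (stars) and 7 alternatives (other symbols); a missing symbol means that the gene had no ratio under that setting, and dotted lines mark 2-fold. Car3 stays between -2.002 and -1.61, Car8 ranges from -3.42 to -0.29, and Car2 appears with the 25th percentile floor (-1.43) and with log2(signal + 16) (-0.92).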

How the data were processed

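The 2 Affymetrix arrays hold osteoblast RNA, 1 array per conditioned medium. Groups came from the source descriptions, because 1 title combines parts of both line names. The authors deposited 1 linear intensity per probe set and array; the submitters' processing notes name MAS5 and GCOS 1.4. Both arrays had a mean of 300.0 without the lowest and highest 2% of values; the sources used here do not give the scaling target, background settings or detection calls. Probe sets were named by the platform annotation, 64 controls were left out, and RefSeq tables (GRCm38.p6) served for gene order and promoter windows.

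Each signal under the 50th percentile of its array was raised to it (the floor) before taking log2. A ratio with 1 array at the floor is a bound, and with both there none is given. With 1 array per group no error or test between the media exists, and the number of arrays limits the precision. Members and the 7 related lists were chosen with earlier results of these data known. All 10 members were named, and from each list the genes at least 2-fold different (at most 4) or otherwise the 2 largest; marker genes, Car1 and Ptprg were named after their values were seen. List genes without a probe set of their own were not analysed here. Protein sequences were not used here. Alternatives were quantile normalisation, a median ratio of 0, floors at the 25th or 75th percentile, log2(signal + 16) without a floor, the mean over probe sets, omission of those whose type (_a_at, _s_at, _x_at) allows several transcripts, and thresholds of 1.5-fold and 3-fold. Analyses ran in Python 3.11 with numpy 2.4.6 and pandas 2.3.3, and scripts were tested on simulated data.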

Additional observations from a re-analysis of the deposited data

How the results depend on the processing

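The direction of Car3 was the same under all 7 alternatives, with log2 ratios from -2.002 to -1.61; the value of -1.61 was the mean over its probe sets, in which a bound takes part. Car8 was -3.42 at a 25th percentile floor, -0.29 at a 75th percentile floor and -2.93 with log2(signal + 16), and had no ratio without probe sets that can match several transcripts, since its other probe sets lie below the floor. The count of members at least 2-fold lower was 1 instead of 2 at the 75th percentile floor and without those probe sets, and 3, Car2 included, at the 25th percentile floor. At 1.5-fold, 2 members were higher. Car5b was 0.52 with probe sets averaged, Car6 0.57 at the 25th percentile floor and 0.47 with log2(signal + 16), and Car4 0.05 with the latter. Over all genes, the counts at least 2-fold lower and higher were 210 and 240, against 590 and 687 at the 25th percentile floor, 76 and 127 at the 75th, 436 and 527 with log2(signal + 16), 744 and 634 at 1.5-fold and 46 and 96 at 3-fold. The median of the hypoxia list was 0.62 without probe sets that can match several transcripts, that of the proton exchanger list 1.17 at the 75th percentile floor, and the 6 other carbonic anhydrase genes, with no ratio otherwise, gave medians of -0.28 at the 25th percentile floor and -0.17 with log2(signal + 16). The counts at 1.5-fold and 3-fold apply other thresholds to the same ratios. A changed or absent floor alters which dim genes have a ratio or a bound. The shifts in the list medians were not examined further. No paired analysis was possible because each group has 1 array. Signals near the floor limit Car5b, Car11 and Car12, and no spread between cultures could be measured.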
